A study of Mus musculus with 2 samples.

Results

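The endoplasmic reticulum (ER) unfolded protein response and ER chaperone genes were examined in mouse bone marrow-derived macrophages transfected with an antisense oligonucleotide (ASO). The 33 genes were chosen by symbol, and all 33 had a row among the 34745 genes of the deposited expression table. They comprise 5 sensor genes (Ern1, Atf6, Atf6b, Eif2ak3 and their effector Xbp1), 9 chaperones and cofactors, 2 lectin chaperones, 5 oxidoreductases, 2 translocon subunits and 10 genes of ER-associated degradation (ERAD). The AclyE14-ASO library came from primary macrophages of C57BL/6 genotype that received the AclyE14-ASO and lipopolysaccharide (LPS, a bacterial cell wall component that activates macrophages). The Control-ASO library came from cells of the same genotype that received a control ASO and the same LPS label. Each condition was 1 library. Both received LPS, so a response to LPS itself cannot be read from them, and the labels give neither the dose and duration of LPS nor how many mice were used.

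Proteins that are secreted or inserted into membranes fold in the ER. When unfolded proteins accumulate there, 3 sensors in the ER membrane respond. IRE1 (gene Ern1) splices Xbp1 mRNA so that it encodes an active transcription factor, ATF6 is cut in the Golgi to free another one, and PERK (gene Eif2ak3) phosphorylates eIF2 alpha, which slows translation and raises ATF4. The transcription factors induce chaperones, disulfide enzymes and the ERAD machinery that sends misfolded proteins to the proteasome. Activated macrophages secrete large amounts of cytokine, and the XBP1 branch is known to act in their response to Toll-like receptor ligands.

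The best known DNA element of these genes is the ER stress response element (ERSE), which is bound by ATF6 or XBP1 together with NF-Y. It was searched as CCAAT, 9 bases of any kind and CCACG, on both strands of RefSeq promoters (GRCm38.p6, 250 bases before to 50 after each gene start), and 28 of the 33 genes matched a promoter. Atf6, Hyou1, Manf, Derl1 and Sec61a1 had no entry. ERSE was found in the promoters of 9 of the 28 genes, against 37 of all 27025 genes with a promoter (0.119% of all 32851 promoters). The element is known from genes of this kind, so its frequency among them is a description and not a test. The related ERSE-II (ATTGG, 1 base of any kind and CCACG) was found for 2 of 28, against 12 of 27025 genes (0.0365% of all promoters). The UPRE core TGACGTGG was found for 0 of 28, against 193 of 27025 genes (0.676% of all promoters). No motif overlapped another in these promoters. Hspa5 carries the element close to its start, and its 250 upstream bases (chr2:34771840-34772089, plus strand) are shown because Hspa5 had the largest log2 ratio of FPKM + 1 among the 33 genes. The capitals mark the exact ERSE match, whose near edge lies 46 bases before the start.
Hspa5: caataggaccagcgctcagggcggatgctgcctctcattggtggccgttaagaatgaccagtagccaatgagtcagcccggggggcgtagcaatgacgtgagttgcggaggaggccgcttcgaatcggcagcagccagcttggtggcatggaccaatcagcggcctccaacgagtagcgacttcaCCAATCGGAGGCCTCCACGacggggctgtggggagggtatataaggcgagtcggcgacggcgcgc

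The elements of other genes are shown with 10 flanking bases on each side to let their spacers be compared with that of Hspa5. Each line reads 5′ to 3′ on the strand of its gene, and capitals mark the element, which stands in the opposite orientation where it opens with CGTGG.
Hsp90b1, far element (chr10:86705628-86705666, minus strand): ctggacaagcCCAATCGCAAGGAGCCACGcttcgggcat
Hsp90b1, near element (chr10:86705523-86705561, minus strand): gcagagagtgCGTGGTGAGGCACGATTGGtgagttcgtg
Canx (chr11:50325790-50325828, minus strand): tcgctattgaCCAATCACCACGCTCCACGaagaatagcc
Calr (chr8:84847065-84847103, minus strand): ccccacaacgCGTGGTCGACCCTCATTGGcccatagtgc
Creld2 (chr15:88819510-88819548, plus strand): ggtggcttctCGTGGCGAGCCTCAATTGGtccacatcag
Pdia6 (chr12:17266481-17266519, plus strand): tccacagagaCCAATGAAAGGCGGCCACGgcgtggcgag
Dnajc3 (chr14:118937817-118937855, plus strand): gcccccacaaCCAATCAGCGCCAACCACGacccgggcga
Syvn1 (chr19:6046522-6046560, plus strand): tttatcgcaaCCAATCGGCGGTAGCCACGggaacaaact
Herpud1, ERSE-II (chr8:94386367-94386397, plus strand): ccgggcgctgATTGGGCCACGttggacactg
Derl3 also held an ERSE, and the ERSE-II of Dnajb11 began at base 8 of the transcript. Every ERSE spacer of these genes held 6 or 7 G or C among its bases.

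The AclyE14-ASO library held 12751076 gene counts and the Control-ASO library 14215397. A mean of at least 1 FPKM (reads scaled to gene length and to the library's summed counts) over both was reached by 8658 genes, called expressed here. Acly, the gene the oligonucleotide is named for, had 768 counts in the AclyE14-ASO library and 1549 in the Control-ASO library. Log2 ratios were taken of FPKM + 1, with the AclyE14-ASO library on top. Their median over expressed genes was -0.13, so ratios are also given against that median. All 12 macrophage markers listed were expressed, and they split evenly, with 6 count ratios above 1 and 6 below. Itgam (4.74), Cd14 (2.23), Fcgr1 (1.96) and Msr1 (1.87) were called higher at 1.5-fold on FPKM + 1 and Cd68 (0.557) lower, while Adgre1, the gene for F4/80, had a ratio of 0.795. By that measure 7.03% of all expressed genes were higher and 8.48% lower. The part of these marker differences in the results below was not tested. All 10 expressed genes of a 14-gene list of fibroblast and stromal markers were higher in the AclyE14-ASO library, where the list summed to 355 FPKM against 72.1 FPKM in the Control-ASO library. Timp1 gave the largest part of each sum, 108 FPKM with the AclyE14-ASO and 13.4 FPKM with the control ASO. Of the stromal markers only Postn was at 0 in a library, with 5 counts in the AclyE14-ASO library and 0 in the Control-ASO library. Of 9 lymphoid and plasma cell markers only Lck was expressed, with 315 counts with the AclyE14-ASO and 216 with the control ASO. Ighm had 9 and 11 counts in the same order, and Jchain, which marks plasma cells, 0 in both. Of 8 neutrophil markers 2 were expressed, S100a8 (ratio 2.10) and Csf3r (1.58). Only Pf4 (3.17) was expressed of 8 erythroid and mast cell markers, and only Itgax (1.10) of 6 dendritic ones. In bulk RNA, fewer cells of a type and less RNA per cell cannot be told apart. All differences below lie between 2 libraries and have no replicate check, and the 95% intervals given (exact, conditional binomial) cover counting error only.

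Of the 33 genes, 32 were expressed. Derl3, a derlin of secretory tissues, had 0 counts in both libraries, which allows at most 0.235 CPM (counts scaled to the library total) in the AclyE14-ASO library and 0.211 CPM in the Control-ASO library. A change of 1.5-fold or more on FPKM + 1 was called for few of them. Hspa5 and Sel1l were higher, 2 of 32 against 7.03% of all expressed genes. Dnajb9 was the only gene lower by that measure, 1 of 32 against 8.48% of expressed genes. These shares are near the background, and the genes did not stand out by their number of large differences.

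As a set the genes sat higher on the ratio scale than expressed genes at large in these 2 libraries. The median log2 ratio was 0.15 over the 32 genes and -0.13 over all expressed genes, and 25 of the 32 lay above the all-gene median. By counts, 20 of 32 had a ratio above 1, compared with 35.1% of expressed genes. The counting interval lay wholly above 1 for 17 (background 21.7%), wholly below 1 for 7 (background 44.2%) and included 1 for 8. The signs of 5 genes (Ern1, Xbp1, Hyou1, Edem2 and Selenos) turned positive under centring on the median gene and under both rescalings tried, while 20 were positive and 7 negative under all of these. The interval shares also depend on depth and were not compared within levels. The genes are more abundant than most, so the share with a ratio above 1 was compared within levels. At a mean of 20 FPKM or more, 9 of 12 of these genes had a ratio above 1, against 40.8% of all genes at that level. At 5 to 20 FPKM it was 11 of 18 against 31.2%, and at 1 to 5 FPKM 0 of 2 against 35.1%. Together the genes took 0.462% of all counts in the AclyE14-ASO library and 0.388% in the Control-ASO library, a ratio of 1.19 (1.18 to 1.20), or 1.13 (1.12 to 1.14) without Hspa5. Whether the transcripts of the stromal marker list contribute to this was not tested.

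**Figure D1:**
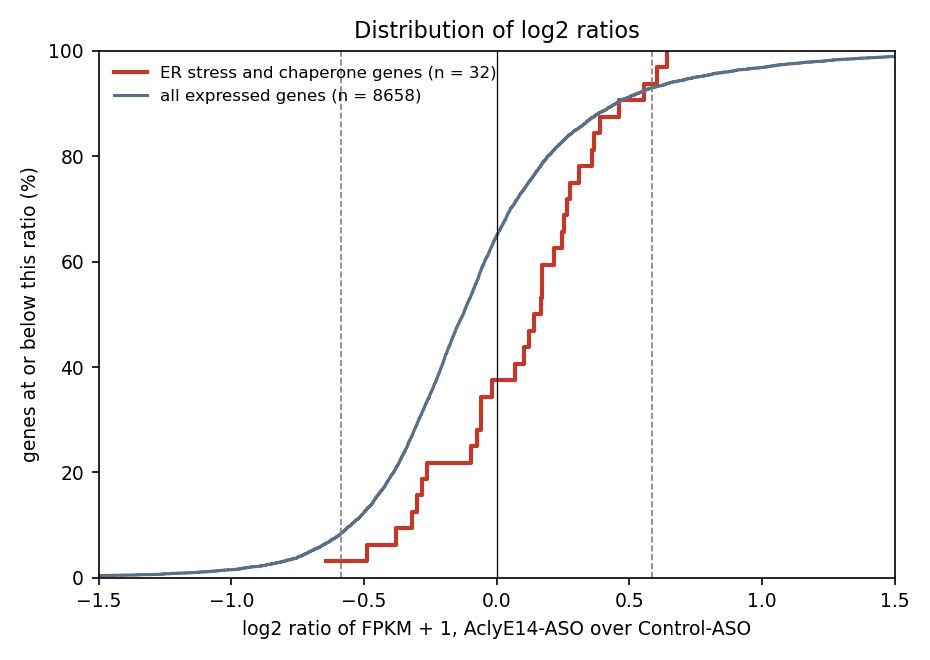
Cumulative share of genes (%) at or below each log2 ratio (FPKM + 1, with AclyE14-ASO over Control-ASO) for the 32 expressed ER stress and chaperone genes and for all 8658 expressed genes, with dashed lines at 1.5-fold. The curve of the ER genes runs to the right of the other through the middle, with medians of 0.15 and -0.13, but few of its genes pass the dashed lines.

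The sensors and their effector were the class with the lowest median log2 ratio, -0.28. The median over all expressed genes was -0.13, the class median was -0.15 on centring, and 2 of the 5 genes lay above the all-gene median. Atf6, a membrane-bound transcription factor, was at 4.91 FPKM in the AclyE14-ASO library and 7.29 FPKM in the Control-ASO library. Its count ratio was 0.673 (0.607 to 0.747), which spans the limit of 1.5-fold, and 13.2% of expressed genes ranked below it. Atf6b, its paralog, was at 11.6 FPKM with the AclyE14-ASO and 15.4 FPKM with the control ASO, a ratio of 0.754 (0.676 to 0.840). Both intervals lay below 1, as did those of 44.2% of expressed genes. Eif2ak3, the PERK kinase gene, was scarce, with 83 counts (0.819 FPKM) in the AclyE14-ASO library and 137 counts (1.21 FPKM) in the Control-ASO library, and its ratio of 0.675 had a wide interval of 0.508 to 0.894. The log2 ratio of Eif2ak3 was also the class median. Within this class Ern1 and Xbp1 differed least. Ern1 was at 5.35 FPKM with the AclyE14-ASO and 5.70 FPKM with the control ASO, a ratio of 0.940 (0.850 to 1.04). Xbp1, the most abundant of the class, was at 20.3 and 21.2 FPKM in the AclyE14-ASO and Control-ASO libraries, a ratio of 0.958 (0.885 to 1.04). Gene-level values do not resolve the spliced form of Xbp1, the phosphorylation of IRE1 or PERK, or the cleavage of ATF6, so they do not measure how active each branch was.

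**Figure D2:**
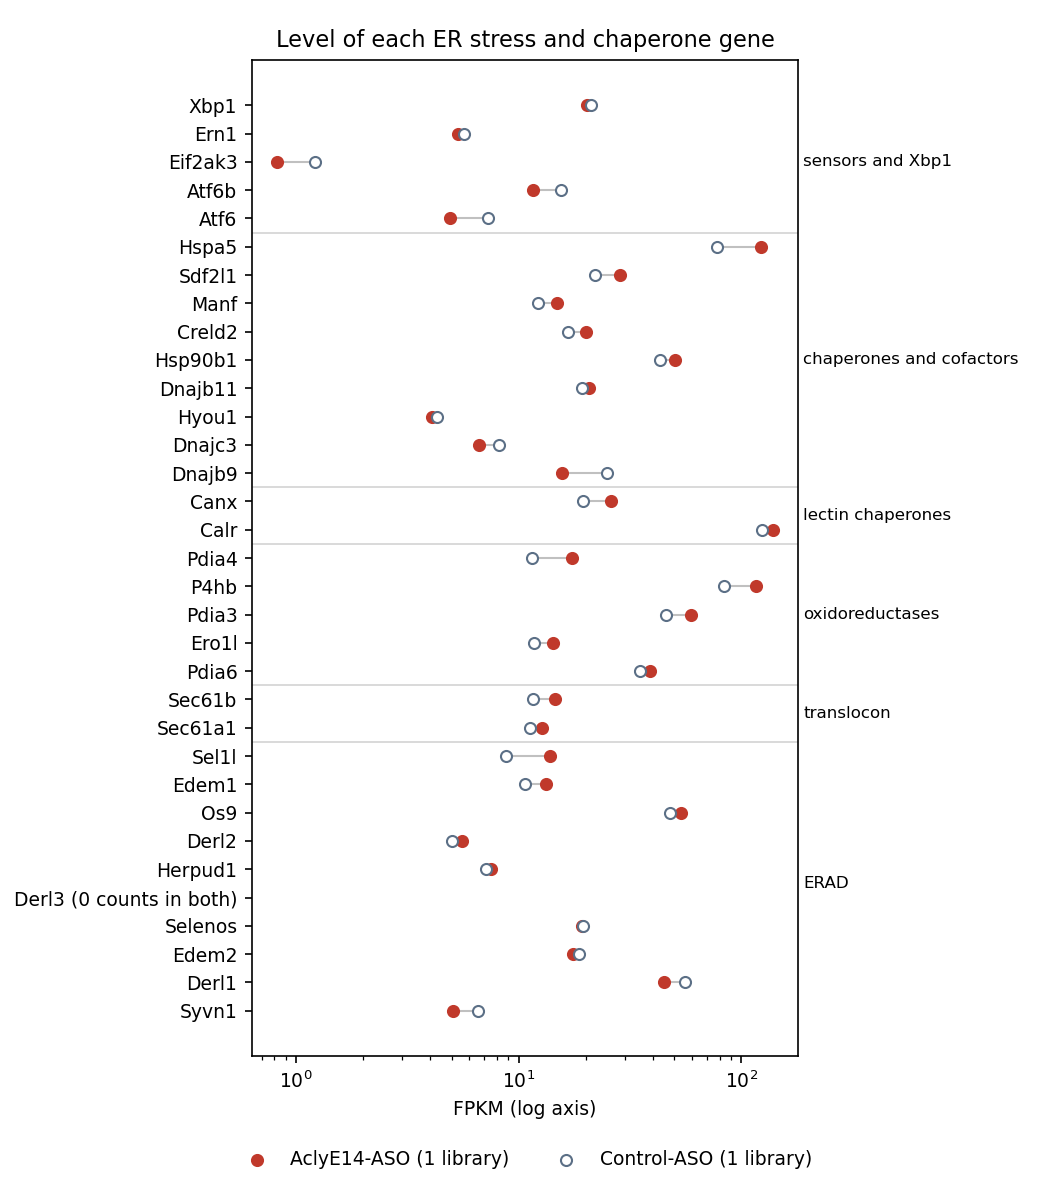
Level of each of the 33 genes in FPKM (log axis), grouped by function, with the AclyE14-ASO library as filled and the Control-ASO library as open circles. Calr, Hspa5 and P4hb are the most abundant, the sensors and Xbp1 lie below 22 FPKM with the open circle to the right, and every oxidoreductase has the filled circle to the right.

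The chaperones of the ER lumen held the highest and the lowest log2 ratio of FPKM + 1, although by count ratio the ERAD gene Sel1l (1.58) stood above Hspa5 (1.57), with overlapping intervals. Hspa5 encodes BiP, the HSP70 of the ER, which binds unfolded chains and restrains the sensors. It was at 122 FPKM from 10847 counts in the AclyE14-ASO library, against 78.1 FPKM from 7716 counts in the Control-ASO library. Its ratio of 1.57 (1.52 to 1.61) was the only one of the 32 with an interval wholly beyond 1.5-fold, and 93.8% of expressed genes ranked below it. Dnajb9, which encodes ERdj4, the BiP cochaperone that acts on IRE1 and on ERAD substrates, lay at the opposite end. It was at 15.6 FPKM (371 counts) with the AclyE14-ASO and 24.9 FPKM (661 counts) with the control ASO, a ratio of 0.626 (0.550 to 0.712). Its log2 ratio of -0.64 became -0.51 on centring and -0.55 under TMM scaling (and -0.54 with DESeq2 size factors), which ends the 1.5-fold call, as does a pseudocount of 5. Within a library, where no scaling enters, Hspa5 FPKM was 7.84 times that of Dnajb9 with the AclyE14-ASO and 3.13 times with the control ASO, a pair set side by side after its values were seen.

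The other 7 genes of this class lay between. Hsp90b1, which encodes GRP94, the HSP90 of the ER and the chaperone of Toll-like receptors and integrins, was at 50.2 FPKM with the AclyE14-ASO and 43.1 FPKM with the control ASO (ratio 1.16, 1.11 to 1.22). Sdf2l1, a stress-induced partner of the BiP cycle, was at 28.7 and 22.0 FPKM (AclyE14-ASO and Control-ASO), with a ratio of 1.30 (1.12 to 1.51). Manf, a small secreted cofactor of BiP, was at 14.9 FPKM with the AclyE14-ASO and 12.2 FPKM with the control ASO, a ratio of 1.22 (1.11 to 1.34). Rbm15b overlaps it on the same strand, and how shared reads were assigned is not stated. Summing both genes left the ratio at 1.21. Adding instead Dcaf1, on the opposite strand with 240 counts (AclyE14-ASO) and 222 (Control-ASO), gave 1.22. Creld2, an ER stress-induced protein with disulfide isomerase activity, was at 20.01 FPKM with the AclyE14-ASO and 16.7 FPKM with the control ASO, a ratio of 1.20 (1.03 to 1.40). The remaining cofactors had lower ratios. Dnajb11 (ERdj3), which delivers substrates to BiP, was at 20.7 FPKM with the AclyE14-ASO and 19.2 FPKM with the control ASO, and its interval of 0.994 to 1.17 included 1. Hyou1 (GRP170), the nucleotide exchange factor of BiP, was at 4.09 and 4.30 FPKM in the AclyE14-ASO and Control-ASO libraries (ratio 0.951, 0.853 to 1.06). Dnajc3, which encodes p58IPK, a BiP cochaperone also described as an inhibitor of PERK, was at 6.62 FPKM with the AclyE14-ASO and 8.15 FPKM with the control ASO, with a ratio of 0.812 (0.717 to 0.920). Ratios in this class ranged from 0.626 for Dnajb9 to 1.57 for Hspa5.

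Both lectin chaperones, which hold glycoproteins during folding, had intervals above 1. Calr, calreticulin, was the most abundant of the 33 genes at 139 FPKM (7541 counts) in the AclyE14-ASO library and 124 FPKM (7462 counts) in the Control-ASO library. Its ratio was 1.13 (1.09 to 1.16). Canx, its membrane-bound relative calnexin, was at 25.9 and 19.5 FPKM in the AclyE14-ASO and Control-ASO libraries, a ratio of 1.33 (1.25 to 1.41).

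The oxidoreductases, which form and shuffle disulfide bonds, were the class with the highest median log2 ratio, 0.36. In all 5 the counting interval lay above 1, and none of them was called at 1.5-fold on FPKM + 1. Pdia4 (ERp72), a multi-domain isomerase, was at 17.4 FPKM with the AclyE14-ASO and 11.5 FPKM with the control ASO. By counts its ratio was 1.51 (1.34 to 1.71), and on FPKM + 1 its log2 ratio of 0.56 fell short of the limit but passed it on centring (0.68). P4hb encodes the classic protein disulfide isomerase, which is also the beta subunit of collagen prolyl 4-hydroxylase. It was at 116 FPKM (5593 counts) with the AclyE14-ASO and 84.1 FPKM (4512 counts) with the control ASO, a ratio of 1.38 (1.33 to 1.44). Pdia3 (ERp57), the partner of calnexin and calreticulin and a component of the MHC class I loading complex, was at 59.4 and 46.1 FPKM in the AclyE14-ASO and Control-ASO libraries (ratio 1.29, 1.22 to 1.36). Ero1l, the oxidase that recharges disulfide isomerase, was at 14.2 FPKM with the AclyE14-ASO and 11.8 FPKM with the control ASO, a ratio of 1.21 (1.09 to 1.34). Pdia6 had the smallest ratio of the class, 1.11 (1.04 to 1.17), with 38.8 FPKM with the AclyE14-ASO and 35.1 FPKM with the control ASO. The median of the oxidoreductases exceeded that of the sensors by 0.64 on the log2 scale. These were the highest and lowest class medians, so a gap between them follows from that choice. The sensor median was the value of the scarce Eif2ak3, which depends on the pseudocount. The medians were 0.33 and -0.09 at a pseudocount of 5, and 0.36 and -0.41 at 0.1, oxidoreductases first.

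The protein-conducting channel subunits Sec61a1 and Sec61b had count ratios of 1.13 (1.06 to 1.21) and 1.26 (1.08 to 1.47). Sec61a1, the channel itself, was at 12.8 FPKM in the AclyE14-ASO library and 11.2 FPKM in the Control-ASO library. Sec61b, a small subunit beside it, was at 14.5 FPKM with the AclyE14-ASO and 11.6 FPKM with the control ASO.

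**Figure D3:**
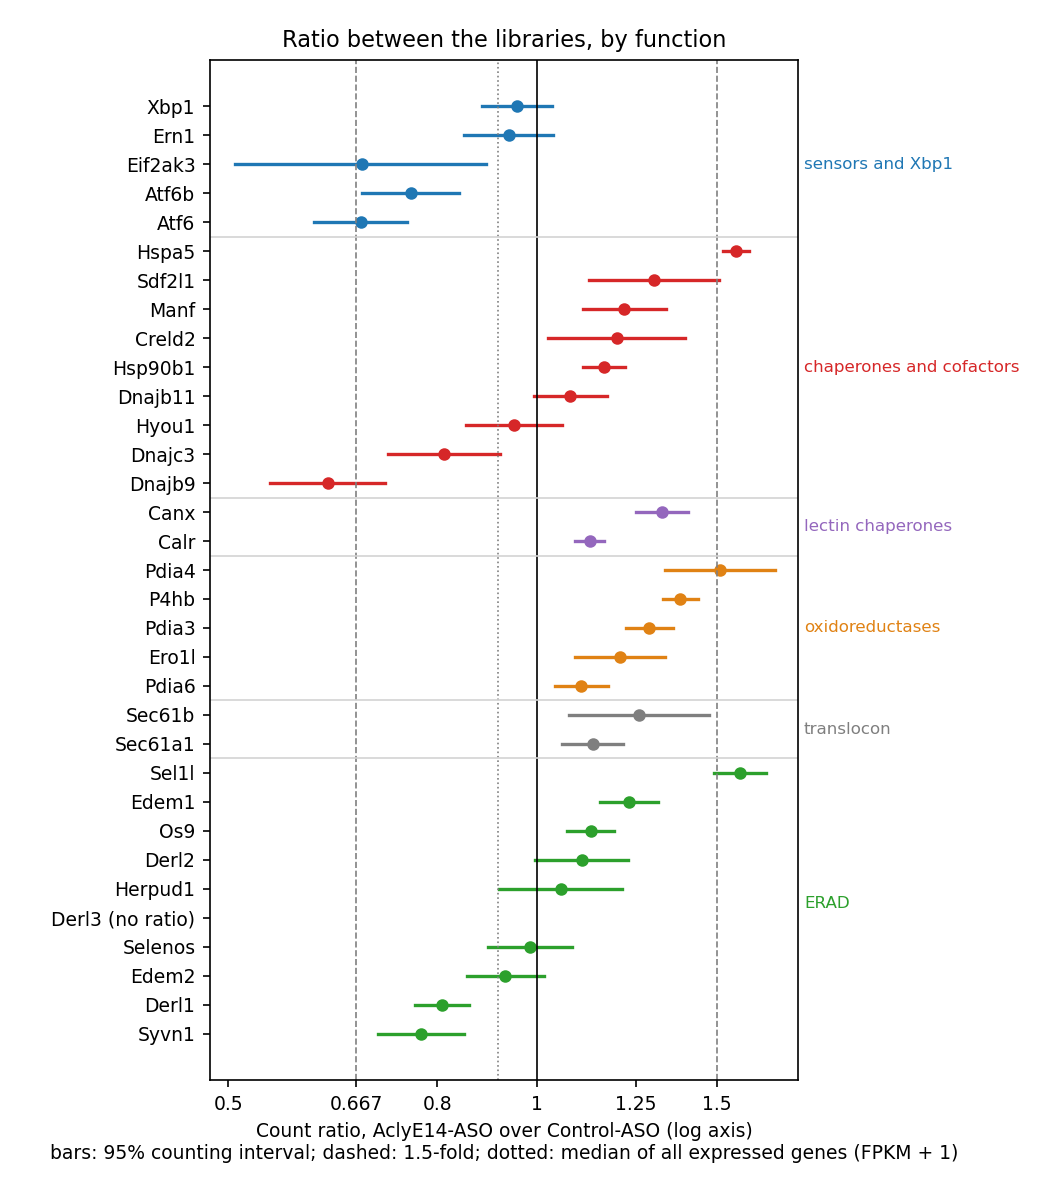
Count ratio of each gene, AclyE14-ASO over Control-ASO (log axis), with its exact 95% counting interval, grouped by function. Dashed lines mark 1.5-fold. The dotted line marks the median ratio of FPKM + 1 over all expressed genes, so it is not a median count ratio. Intervals of the sensors and Xbp1 lie below 1 or include it, those of all 5 oxidoreductases above 1, and those of the chaperones and ERAD genes on both sides.

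The 9 expressed ERAD genes were spread on both sides of 1, with a median log2 ratio of 0.07 and intervals above 1 for 3, below 1 for 2 and including 1 for 4. The membrane complex built on HRD1 was split. Sel1l, the adaptor that stabilises HRD1 and receives substrates, was at 13.8 FPKM (2771 counts) with the AclyE14-ASO and 8.75 FPKM (1957 counts) with the control ASO, a ratio of 1.58 (1.49 to 1.67). The lower bound just misses the 1.5-fold limit, and a pseudocount of 5 ended the call (log2 ratio 0.45). Syvn1, the HRD1 ubiquitin ligase itself, was at 5.09 FPKM (709 counts) with the AclyE14-ASO and 6.59 FPKM (1024 counts) with the control ASO, a ratio of 0.772 (0.700 to 0.850). The deposited counts are not stated to use strand, and Mrpl49 overlaps Syvn1 on the opposite strand with 169 counts in the AclyE14-ASO library and 300 in the Control-ASO library. Counting Syvn1 and Mrpl49 together gives 0.739. In each library the FPKM of Sel1l relative to Syvn1 can be compared without scaling, and it was 2.72 with the AclyE14-ASO and 1.33 with the control ASO (chosen after the values were seen).

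The derlins are channel proteins of the same complex. Derl1 was at 45.2 FPKM with the AclyE14-ASO and 55.9 FPKM with the control ASO, a ratio of 0.809 (0.761 to 0.860). Derl2 was at 5.58 and 5.04 FPKM in the AclyE14-ASO and Control-ASO libraries, a ratio of 1.11 whose interval ran from just under 1 to 1.23, and it overlaps Mis12 on the opposite strand. Adding the reads of Mis12 gives 1.005 (0.921 to 1.10). Edem1, which marks glycoproteins for degradation by mannose trimming, was at 13.2 FPKM with the AclyE14-ASO and 10.7 FPKM with the control ASO (ratio 1.23, 1.15 to 1.31). Its relative Edem2 was at 17.5 FPKM with the AclyE14-ASO and 18.8 FPKM with the control ASO, a ratio of 0.932 (0.854 to 1.02). Os9, a lectin that reads the trimmed sugars, was the most abundant ERAD gene by mean, at 53.9 FPKM with the AclyE14-ASO and 47.7 FPKM with the control ASO (ratio 1.13, 1.07 to 1.19). Herpud1, a stress-induced scaffold of the complex, was at 7.52 and 7.13 FPKM in the AclyE14-ASO and Control-ASO libraries, and Selenos, a selenoprotein that links derlins to the p97 ATPase, was at 19.3 FPKM with the AclyE14-ASO and 19.5 FPKM with the control ASO. The intervals of Edem2, Herpud1, Selenos and Derl2 included 1.

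Ratios were also compared by promoter element. The 10 expressed genes with an ERSE or ERSE-II had a median log2 ratio of 0.16 (range -0.32 to 0.64), and the 17 with neither had 0.17 (range -0.64 to 0.60). Only exact matches were counted, so genes with an inexact copy can fall in the group with neither. Genes whose element was printed above lay on both sides of 1 by count ratio. Hspa5 was at 1.57 and Canx at 1.33, and Dnajc3 was at 0.812 and Syvn1 at 0.772. For Dnajb9 and Sel1l, the other genes called at 1.5-fold, no motif matched in the window.

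Among further genes of the response, the PERK and ATF4 branch had a median log2 ratio of -0.25 over 14 genes. Of these, 3 were lower and 1 higher. Of all expressed genes 7.03% were higher and 8.48% lower by the same measure, the background for the list counts here and below. Chac1, a glutathione-degrading ATF4 target, was at 15.0 FPKM with the AclyE14-ASO and 30.3 FPKM with the control ASO. Atf4 itself, the transcription factor of this branch, was at 288 and 445 FPKM in the AclyE14-ASO and Control-ASO libraries, and Trib3, a pseudokinase target, at 22.7 FPKM with the AclyE14-ASO and 35.7 FPKM with the control ASO. Ddit4, an inhibitor of mTORC1 that also answers to glucocorticoids and hypoxia, went the other way, at 10.7 FPKM with the AclyE14-ASO and 3.34 FPKM with the control ASO. Cebpb was at 140 and 98.2 FPKM in the AclyE14-ASO and Control-ASO libraries. Of 16 expressed genes of other signalling steps, 2 were higher and 0 lower (median -0.08). These were the genes of 2 ER-membrane transcription factors. Creb3l1, known for its role in collagen-secreting cells, was at 7.38 FPKM with the AclyE14-ASO and 2.57 FPKM with the control ASO, and Creb3l2 at 2.23 FPKM with the AclyE14-ASO and 0.928 FPKM with the control ASO. Rtcb, the ligase that joins the spliced ends of Xbp1 mRNA, was at 30.3 FPKM in the AclyE14-ASO library and 44.7 FPKM in the Control-ASO library. Traf2, an adaptor that IRE1 recruits, had 13.1 FPKM with the AclyE14-ASO and 17.4 FPKM with the control ASO. Tmbim6, an ER-membrane inhibitor of cell death, had 165 FPKM with the AclyE14-ASO and 112 FPKM with the control ASO.

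Other folding factors of the ER had a median log2 ratio of 0.01, with 4 of 28 higher and 0 lower (background 7.03% and 8.48%). The upper end held Pdia5, a disulfide isomerase, at 2.34 FPKM with the AclyE14-ASO and 0.817 FPKM with the control ASO, and Fkbp9, a prolyl isomerase, at 8.99 FPKM with the AclyE14-ASO and 4.82 FPKM with the control ASO. The lower end held Cnpy3, a GRP94 cofactor for Toll-like receptors, at 3.08 FPKM with the AclyE14-ASO and 4.82 FPKM with the control ASO, and Erp29 at 6.13 FPKM with the AclyE14-ASO and 8.46 FPKM with the control ASO. Ppib, cyclophilin B, was the most abundant of this list at 177 FPKM with the AclyE14-ASO and 173 FPKM with the control ASO.

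The 23 other ERAD genes had a median of -0.17, with 1 higher and 2 lower, near the background of 7.03% and 8.48%. Ube2g2, a ubiquitin-conjugating enzyme, was higher, at 28.2 FPKM with the AclyE14-ASO and 15.0 FPKM with the control ASO. Ufd1, a cofactor of the p97 ATPase that extracts substrates, was lower, at 2.81 FPKM with the AclyE14-ASO and 5.05 FPKM with the control ASO. The other lower gene, Tmub1, was at 1.64 FPKM with the AclyE14-ASO and 3.44 FPKM with the control ASO. Neither of the lists for protein entry and for glycosylation in the ER held a gene beyond the limit. The 21 other translocation genes had a median of 0.19, and 0 of them were called in either direction. Ssr4, a translocon-associated subunit, was at 10.5 FPKM with the AclyE14-ASO and 6.81 FPKM with the control ASO, and the signal peptidase gene Sec11a was at 4.96 FPKM with the AclyE14-ASO and 7.44 FPKM with the control ASO. The 11 genes of the oligosaccharyltransferase, which attaches N-glycans, had a median of 0.06, and 0 were called. Its most abundant subunit gene, Ddost, was at 77.4 FPKM with the AclyE14-ASO and 57.8 FPKM with the control ASO, and the catalytic subunit gene Stt3b was at 20.6 FPKM with the AclyE14-ASO and 26.4 FPKM with the control ASO.

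Genes of collagen folding in the ER spread widely. Of 9 expressed collagen-folding genes 4 were higher and 0 lower, against 7.03% and 8.48% of all expressed genes. The list's median was 0.14, which turned to -0.01 where a mean of 5 FPKM was required. Serpinh1, the collagen chaperone HSP47, was at 47.9 FPKM with the AclyE14-ASO and 11.7 FPKM with the control ASO, a count ratio of 4.09 (3.67 to 4.56). Colgalt1, a collagen galactosyltransferase gene, was at 105 FPKM with the AclyE14-ASO and 61.3 FPKM with the control ASO. P4ha1, a catalytic subunit that pairs with P4hb, was not among them, at 21.2 FPKM with the AclyE14-ASO and 23.0 FPKM with the control ASO. Its relatives P4ha2 and P4ha3 fell below the filter of 1 FPKM. P4ha2 had 86 counts with the AclyE14-ASO and 91 with the control ASO, and P4ha3 had 28 and 0. Among 23 ER-to-Golgi transport genes 3 passed the limit upwards and 0 downwards, and their median was 0.07. Kdelr3, a receptor that returns escaped chaperones to the ER, was at 3.83 FPKM with the AclyE14-ASO and 0.895 FPKM with the control ASO, and its paralog Kdelr1 at 7.24 FPKM with the AclyE14-ASO and 9.44 FPKM with the control ASO. The coat gene Sec24d was higher too, at 3.35 FPKM with the AclyE14-ASO and 1.69 FPKM with the control ASO. The stromal markers summed to 355 FPKM in the AclyE14-ASO library and 72.1 FPKM in the Control-ASO library, and their part in the collagen-related and chaperone values was not tested.

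**Figure D4:**
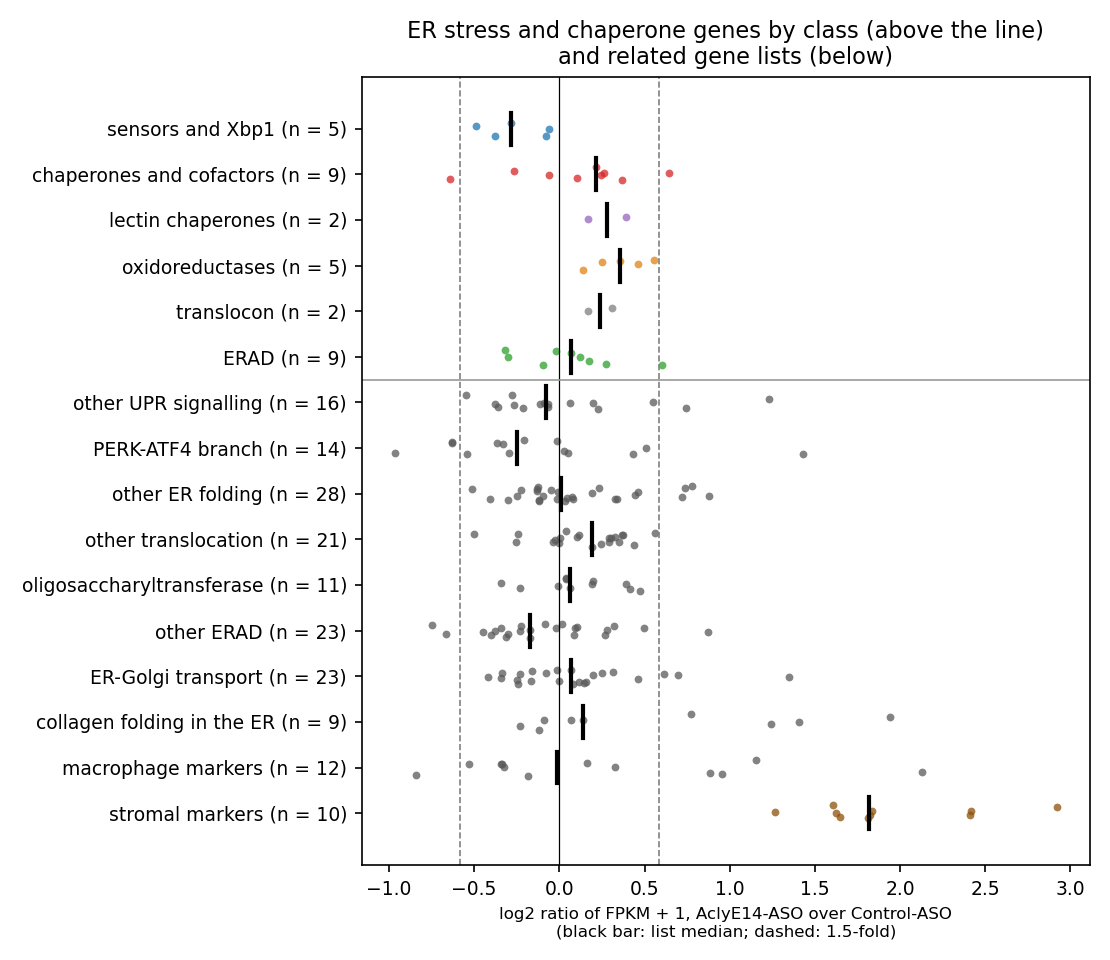
Log2 ratio (FPKM + 1, with AclyE14-ASO over Control-ASO) of each expressed gene (points, jittered vertically) by class of the ER stress and chaperone genes and, below the line, by related gene list and marker list; black bars mark list medians and dashed lines 1.5-fold. The oxidoreductases lie to the right of 0 and the sensors to the left, the collagen-folding genes have a tail to the right, and the stromal markers lie beyond all classes with a median of 1.82.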

How the data were processed

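Gene expression of 2 libraries (1 AclyE14-ASO, 1 Control-ASO) was analysed. The authors deposited raw counts per gene and FPKM values in 1 table, per the file headers. The submitters' processing notes list mm10 as the build and the tools HISAT2, edgeR and StringTie 1.3.0, without their roles. How strand and shared reads were handled is not stated there. FPKM per count stood in 1 ratio between the libraries (1.115), which is the ratio of the count totals, so the deposited FPKM carry no further scaling. Symbols came from GENCODE M21 identifiers (34267 of 34745 matched).

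With 1 library per group no test was run. The value was the log2 ratio of FPKM + 1 where the mean reached 1 FPKM, called at 1.5-fold, and a pseudocount understates changes of low genes. Count ratios per library total have exact 95% intervals. The members and lists were chosen with earlier results of these data known. All 33 genes were named, and from each related list up to 2 genes at each end and the most abundant. Calculations were tested on simulated counts. Python 3.11.15, NumPy 2.4.6, pandas 2.3.3, SciPy 1.17.1, R 4.3.3, edgeR 4.0.16 (TMM) and DESeq2 1.42.0 (size factors) were used.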

Additional observations from a re-analysis of the deposited data

How the results depend on the processing

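With 1 library per condition no library could be left out. No paired analysis was possible because each group has 1 library and the result comes from no test. The median of all expressed genes was -0.13, which centring removes. Centring gave 4 higher (Hspa5, P4hb, Pdia4 and Sel1l) and 0 lower of the 32 genes, and TMM and DESeq2 size factors gave 3 higher (Hspa5, Pdia4 and Sel1l) and 0 lower. Of all expressed genes, 9.83% were higher and 4.69% lower on centring. With TMM these shares were 8.73% and 5.84%, and with DESeq2 size factors 8.76% and 5.81%. Over all genes, the share of higher among called genes was 45.3% without centring, 67.7% with it and 59.9% with TMM. A pseudocount of 0.1 gave 3 higher (Pdia4 gained) and 1 lower, and one of 5 gave 1 higher and 0 lower. The shares of all expressed genes were 9.09% higher and 13.7% lower at 0.1, and 3.31% and 2.98% at 5. A 2-fold threshold gave 0 and 0, against 3.18% and 1.55% of all expressed genes. A requirement that the whole counting interval pass 1.5-fold gave 1 higher (Hspa5) and 0 lower, against 5.91% and 5.94%. Leaving out Hspa5, chosen after seeing the data, left 1 higher.

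Under centring, TMM and DESeq2 size factors the median over the 32 genes was 0.28, 0.25 and 0.25, that of chaperones 0.34, 0.31 and 0.32, of lectin chaperones 0.41, 0.38 and 0.38, of oxidoreductases 0.49, 0.46 and 0.46, and of ER-to-Golgi genes 0.20, 0.17 and 0.17. The ER-to-Golgi median was 0.00072 and that of collagen folding -0.01 where the filter was 5 FPKM, and the collagen-folding median was 0.26 with no filter, 0.24 at a pseudocount of 0.1 and 0.05 at 5. The median of other signalling genes turned to 0.05 on centring and that of other folding factors to -0.03 without the length and GC trends, and the PERK and ATF4 median was -0.12 on centring. The pseudocounts of 0.1 and 5 moved the log2 ratio of the scarce Eif2ak3 to -0.51 and -0.09. Over all alternatives tried the median of the 32 genes ranged from 0.13 to 0.28 and that of the sensors from -0.41 to -0.09. No gene called at 1.5-fold changed sign, but the alternatives shifted values by far less than that limit, so this is no check of the calls. Removing the trends on gene length and transcript GC and a pseudocount of 0.1 moved no gene beyond its counting interval. Summing reads with overlapping genes on the same strand could move only Hsp90b1 and Manf, and it left both within their intervals. Depth limits Eif2ak3 most, with 83 counts in the AclyE14-ASO library and 137 in the Control-ASO library.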

Other observations

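ERSE or ERSE-II elements also occurred in RefSeq promoters of genes outside the set, and 6 of these were expressed. Nucb1, which encodes the calcium-binding nucleobindin of the Golgi, had 3338 counts (36.4 FPKM) in the AclyE14-ASO library and 2565 counts (25.1 FPKM) in the Control-ASO library, a ratio of 1.45 (1.38 to 1.53). The oligosaccharyltransferase subunit gene Krtcap2 had a ratio of 1.42 (1.23 to 1.64). Gm20560 and Rcl1 had ratios of 1.49 (1.24 to 1.80) and 1.30 (1.07 to 1.58), while the intervals of Alg12, a mannosyltransferase of N-glycan assembly (106 counts with the AclyE14-ASO and 105 with the control ASO), and of the RNA-binding protein gene Rbm39 (965 counts with the AclyE14-ASO and 1108 with the control ASO) included 1. In all, 5 of the 6 had a ratio above 1, against 35.1% of expressed genes, and 0 were higher by 1.5-fold on FPKM + 1, against 7.03%. A match in these letters is a description of the promoter and says nothing about binding in these cells.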
